A study of Homo sapiens with 3 samples.

Results

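GRN, C9orf72, TARDBP, SOD1, TBK1, OPTN, VCP, CHMP2B and TMEM106B, 9 genes tied to amyotrophic lateral sclerosis (ALS) and frontotemporal dementia, were examined for open chromatin in human neurons. They are 9 of 20037 protein-coding genes in the RefSeq gene table. Their regions were chosen by place alone: every listed interval with a summit in the gene body or within 50 kb of its outer ends was taken. That gave 46 of the 65234 distinct regions of the list, with 121 of its 145092 summits. The measurements are ATAC-seq, in which Tn5 transposase cuts accessible DNA and leaves sequencing adapters there, so that open sequence collects tags. The neurons were made from a KOLF2.1J line with NGN2, a neurogenic transcription factor, and were collected on day 14 of differentiation. KOLF2.1J is a widely used pluripotent stem cell line, so all replicates share 1 genetic background. All 3 biological replicates belong to this group, with no other genotype, treatment or time, and 1 pooled peak list was deposited for them. There is therefore no value per replicate, no standard deviation between replicates and no comparison between groups. Each error below is a 95% exact Poisson interval on tags, and it covers counting error only.

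ALS and frontotemporal dementia share genes and pathology. TARDBP codes for TDP-43, an RNA-binding protein that leaves the nucleus and aggregates in most cases of ALS. Expansion of a GGGGCC repeat in C9orf72 is a known cause of either disease, while loss of 1 copy of GRN, the gene for the lysosomal protein progranulin, causes frontotemporal dementia. TBK1, OPTN, VCP and CHMP2B act in the removal of proteins and organelles by autophagy and endosomal sorting. TMEM106B is a lysosomal membrane protein whose common variants modify risk in carriers of GRN mutations, and SOD1 is the copper and zinc superoxide dismutase.

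Sequences at the starts are shown for 5 genes: the most and the least enriched start (TBK1 and OPTN), the starts with repeated CCAAT words close to the summit (GRN and VCP), and the start of C9orf72 beside its repeat. Each is a promoter window of 300 bases from RefSeq, build GRCh38.p14, that runs from 250 bases before the annotated start to 50 bases from it on, and it is read along the gene. Capitals mark exact matches to some of the words listed further on, and in C9orf72 only the repeat tract. Other matches stay in lower case: further GGGCGG in OPTN, TGACNNNGC in VCP, and GGGGCGGGG and GGGCGG in C9orf72. In TBK1 the capitals are CCAAT, GTCACGTG (the reverse complement of CACGTGAC) and CCGGAAGT. In OPTN they are GGGGCGGGG and CAGCTG, and in GRN and VCP they are CCAAT or its reverse complement ATTGG. The windows are TBK1 at chr12:64451870-64452169, plus strand, OPTN at chr10:13099832-13100131, plus strand, GRN at chr17:44345052-44345351, plus strand, VCP at chr9:35072576-35072875, minus strand, and C9orf72 at chr9:27573432-27573731, minus strand.
TBK1: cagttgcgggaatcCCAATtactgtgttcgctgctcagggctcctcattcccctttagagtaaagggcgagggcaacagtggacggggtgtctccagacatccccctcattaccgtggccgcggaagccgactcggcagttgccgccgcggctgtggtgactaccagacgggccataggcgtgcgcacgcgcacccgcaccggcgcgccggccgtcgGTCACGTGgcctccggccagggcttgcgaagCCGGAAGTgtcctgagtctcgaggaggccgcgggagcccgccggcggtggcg
OPTN: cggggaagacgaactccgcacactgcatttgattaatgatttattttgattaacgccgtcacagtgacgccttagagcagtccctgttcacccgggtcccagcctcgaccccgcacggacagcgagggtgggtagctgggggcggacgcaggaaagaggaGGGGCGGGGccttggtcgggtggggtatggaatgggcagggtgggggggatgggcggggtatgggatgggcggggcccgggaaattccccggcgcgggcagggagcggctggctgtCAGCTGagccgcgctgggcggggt
GRN: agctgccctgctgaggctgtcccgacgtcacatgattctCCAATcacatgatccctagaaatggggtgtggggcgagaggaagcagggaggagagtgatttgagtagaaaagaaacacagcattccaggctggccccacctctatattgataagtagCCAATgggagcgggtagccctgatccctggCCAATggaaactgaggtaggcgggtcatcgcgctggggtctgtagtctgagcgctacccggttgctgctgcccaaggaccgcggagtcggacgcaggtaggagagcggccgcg
VCP: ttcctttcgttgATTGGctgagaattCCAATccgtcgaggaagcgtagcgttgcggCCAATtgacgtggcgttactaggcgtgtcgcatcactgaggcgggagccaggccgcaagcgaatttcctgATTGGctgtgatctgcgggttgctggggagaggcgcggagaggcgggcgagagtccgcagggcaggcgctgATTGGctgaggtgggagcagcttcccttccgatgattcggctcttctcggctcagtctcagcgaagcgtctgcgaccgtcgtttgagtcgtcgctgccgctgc
C9orf72: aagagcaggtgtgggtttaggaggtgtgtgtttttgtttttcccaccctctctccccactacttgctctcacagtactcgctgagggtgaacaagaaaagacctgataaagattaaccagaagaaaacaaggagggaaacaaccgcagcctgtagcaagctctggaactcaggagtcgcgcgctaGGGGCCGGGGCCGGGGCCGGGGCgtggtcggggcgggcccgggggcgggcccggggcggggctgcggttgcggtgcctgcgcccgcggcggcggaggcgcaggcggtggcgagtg

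All 9 genes had an accessible start, meaning a region whose strongest summit lay within 1 kb of an annotated start, as did 68.4% of all protein-coding genes. An open start is thus the common state. For the 8 genes with a start in the RefSeq promoter table the share to read against is 71.2%. SOD1 was placed by its outer ends, and the region lies at the lower-coordinate one. Fold enrichment is the authors' ratio of tags at a summit to a background level that differs between places. The recovered background had a floor of 29.2 tags over the whole list. Several regions away from the starts of C9orf72, OPTN, CHMP2B and TMEM106B sat at this floor, so there the ratio follows tags alone. At the 9 starts fold enrichment ran from 5.47 at OPTN to 16.3 at TBK1. Its median was 13.0 over the 9 genes and 10.6 over all 13709 accessible coding starts. Of the 9 genes, 7 were above that genome-wide median, and the exceptions were C9orf72 and OPTN. Tags at the same summits, recovered from the deposited values, had a median of 1330 against 966 over all accessible coding starts, and 8 of the 9 genes were above it.

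TBK1, the kinase that phosphorylates OPTN and other autophagy receptors, had the most enriched start. Its fold enrichment was 16.3 (counting interval 15.5 to 17.0, 1839 tags), at percentile 94.9 of accessible coding starts. TMEM106B followed at 15.0 (14.3 to 15.6, 2058 tags) and TARDBP at 14.6 (13.8 to 15.5, 1093 tags). VCP, a AAA ATPase that extracts ubiquitinated proteins from complexes and membranes, stood at 13.4 (12.8 to 13.9, 2294 tags). CHMP2B, a subunit of the ESCRT-III membrane-scission machinery, and GRN were alike at 13.0, with intervals of 12.3 to 13.8 and 12.3 to 13.7 and with 1272 and 1278 tags. SOD1 stood at 12.2 (11.5 to 12.9, 1330 tags). From TBK1 down to SOD1 each gene's interval overlapped that of its neighbour in the order. C9orf72 stood apart below them at 9.24 (8.77 to 9.72, 1448 tags), and OPTN below that at 5.47 (4.97 to 6.01, 431 tags). OPTN was thus at percentile 14.3 by fold enrichment and at percentile 19.3 by tags, the lowest of the 9 on either measure.

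**Figure D1:**
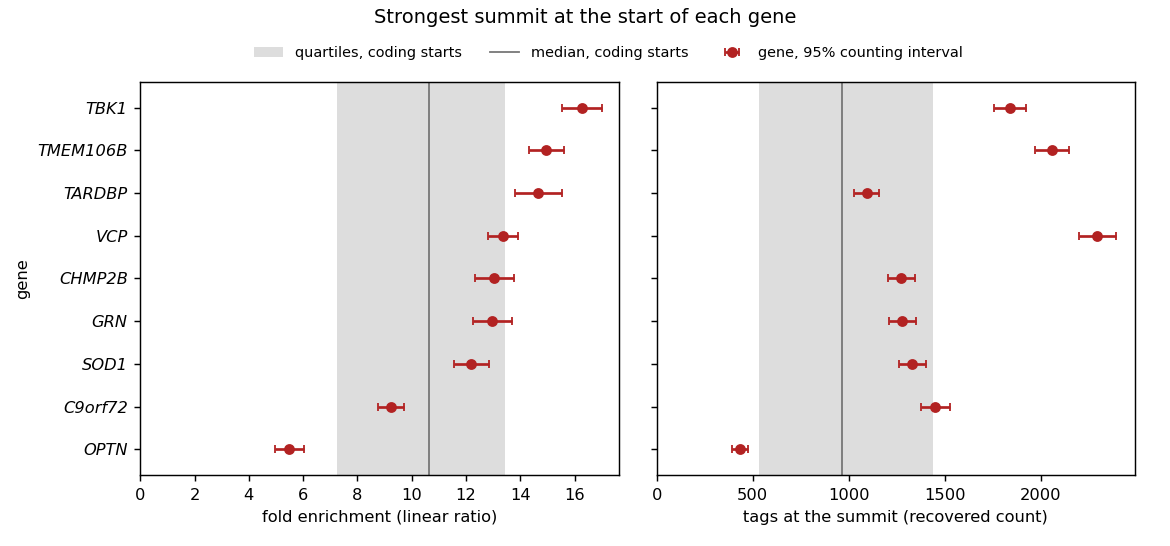
Fold enrichment (left, linear ratio) and recovered tags (right) at the strongest summit of each gene's start. Points are the 9 genes with 95% counting intervals, and grey marks the quartiles and the median of accessible coding starts. OPTN, at 5.47 and 431 tags, lies below the grey band in either panel, while VCP has the most tags, 2294.

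The order by tags differed from the order by fold enrichment, which divides tags by the local background. VCP had the most tags, 2294, over a background of 170.7 tags, which is percentile 91.8 of accessible coding starts. TARDBP was the third by fold enrichment and the eighth by tags, over a background of 73.7 tags (percentile 36.4). C9orf72 was the eighth by fold enrichment and the fourth by tags, with 1448 tags over 155.9 (percentile 88.3). At C9orf72 a low ratio went with many tags and a high background. At OPTN the tags themselves were few, over a background of 77.9.

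In 6 of the 8 genes with an annotated start in the promoter table, the strongest summit lay 1 to 150 bp upstream of it, against 63.7% of 11284 accessible coding starts. The distance was 27 bp at TARDBP, 32 bp at TBK1, 37 bp at TMEM106B, 61 bp at CHMP2B, 84 bp at GRN and 106 bp at VCP. At SOD1 the strongest summit lay 76 bp outside the lower-coordinate end. That summit also lies inside SOD1-DT, a long non-coding RNA gene from 31653587 to 31660024 whose upper end is in the same region, so the signal of the pair cannot be told apart. C9orf72 and OPTN were again the exceptions, with the summit 57 bp downstream and 310 bp upstream.

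Each start region held several summits. In TBK1, GRN, TMEM106B, VCP, CHMP2B and SOD1 the strongest summit was 2.38 to 3.47 times as enriched as the next. In TARDBP, OPTN and C9orf72 the ratio was 1.04, 1.10 and 1.24, against a median of 1.84 over 12297 accessible coding starts with 2 or more summits. At TARDBP the summits 282 and 27 bp upstream of the start had fold enrichments of 14.1 and 14.6. Their tags, 1050 (987 to 1115) and 1093 (1029 to 1160), overlapped within counting error, so TARDBP had a pair of summits of like height 255 bp apart.

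**Figure D2:**
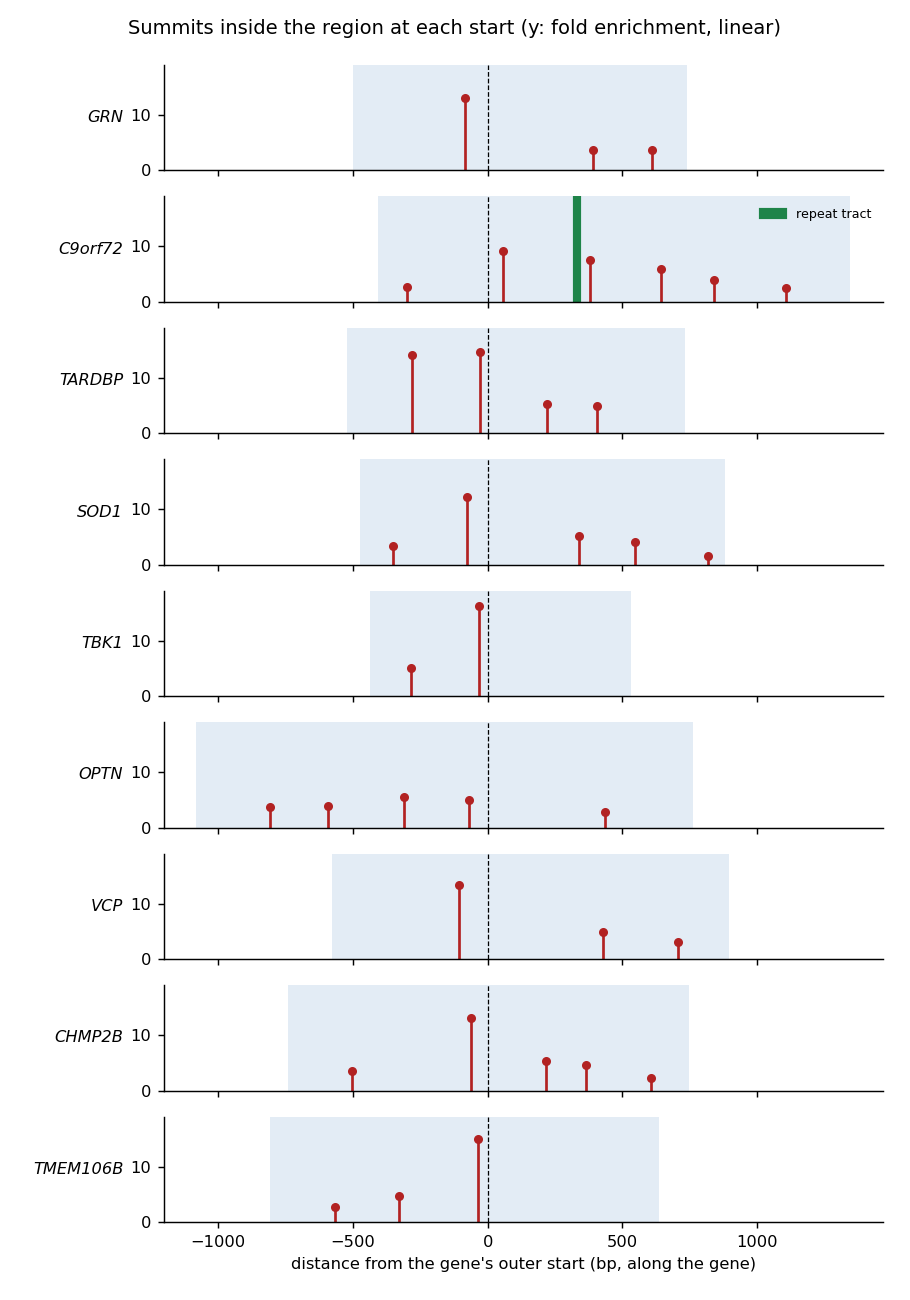
Summits inside the region at each start, by distance from the gene's outer start (bp, along the gene, dashed line at 0) and fold enrichment (linear). Pale blue spans the region and green marks the repeat tract of C9orf72. The strongest summit falls between 27 and 106 bp before the start in 7 genes, and TARDBP has 2 summits of about equal height. C9orf72 has the most summits, 6, while OPTN, SOD1 and CHMP2B have 5 each.

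C9orf72, whose protein forms a complex with SMCR8 and WDR41 that acts in autophagy and at lysosomes, has 2 annotated starts 385 bp apart. A single region from 27572522 to 27574274 on chromosome 9 covered both, and at 1753 bp it was wider than 85.4% of regions at coding starts. Its 6 summits stepped down along the gene. Fold enrichment was 9.24 at 57 bp downstream of the outer start, 7.44 at 378 bp, 5.99 at 644 bp, 3.96 at 839 bp and 2.55 at 1108 bp, and the summit 298 bp upstream had 2.57. The summit at 378 bp held 1166 tags (1100 to 1235), below the 1448 (1374 to 1525) of the strongest one by more than counting error. The reference holds 3 whole GGGGCC units in a tract of 23 bases, from 27573524 to 27573546, printed in capitals above. This tract lies inside the accessible region, 320 bp downstream of the outer start and 43 bp upstream of the inner one. Its nearest summit, the one at 378 bp, is 36 bp away. The length of the repeat in these cells was not analysed here, and the list counts only tags placed on the reference.

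OPTN, an autophagy receptor that binds ubiquitin, has 2 annotated starts 81 bp apart and a neighbour on the opposite strand, CCDC3, whose annotated start lies 93 bp from the outer OPTN start. The region from 13099002 to 13100844 on chromosome 10 covers that whole stretch. At 1843 bp it was the widest of the 9 start regions, at percentile 89.4, yet the least enriched. Its strongest summit lay 217 bp downstream of the CCDC3 start and inside CCDC3, with 431 tags (391 to 474), and the next lay 69 bp upstream of the OPTN start, with 392 tags (354 to 433). These overlapped within counting error. The list cannot say which of OPTN and CCDC3 the signal belongs to.

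The number of regions per window ranged from 2 at SOD1 to 8 at GRN. VCP and CHMP2B had 7, TBK1 had 6, C9orf72 and TARDBP had 5, and OPTN and TMEM106B had 3. The median was 5, as it was over all protein-coding genes, whose quartiles were 3 and 7. By place, 9 of the 46 regions were the genes' own starts, 13 lay within 1 kb of an end of another protein-coding gene and 2 at an end or start of another annotated transcript. The remaining 22 were distal to all of these. In 6 of the 9 genes the own start had the highest fold enrichment of its window, against 44.9% of coding genes with an accessible start. The exceptions were C9orf72, OPTN and VCP. By tags the own start was also the highest in 6 of the 9 genes, against 51.4%, but the exceptions were TARDBP, TBK1 and OPTN. On either side of the 50 kb limit, the last region inside was one of C9orf72 at 48.4 kb (fold enrichment 11.8) and the nearest one outside was at 51.5 kb from TARDBP (7.32).

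**Figure D3:**
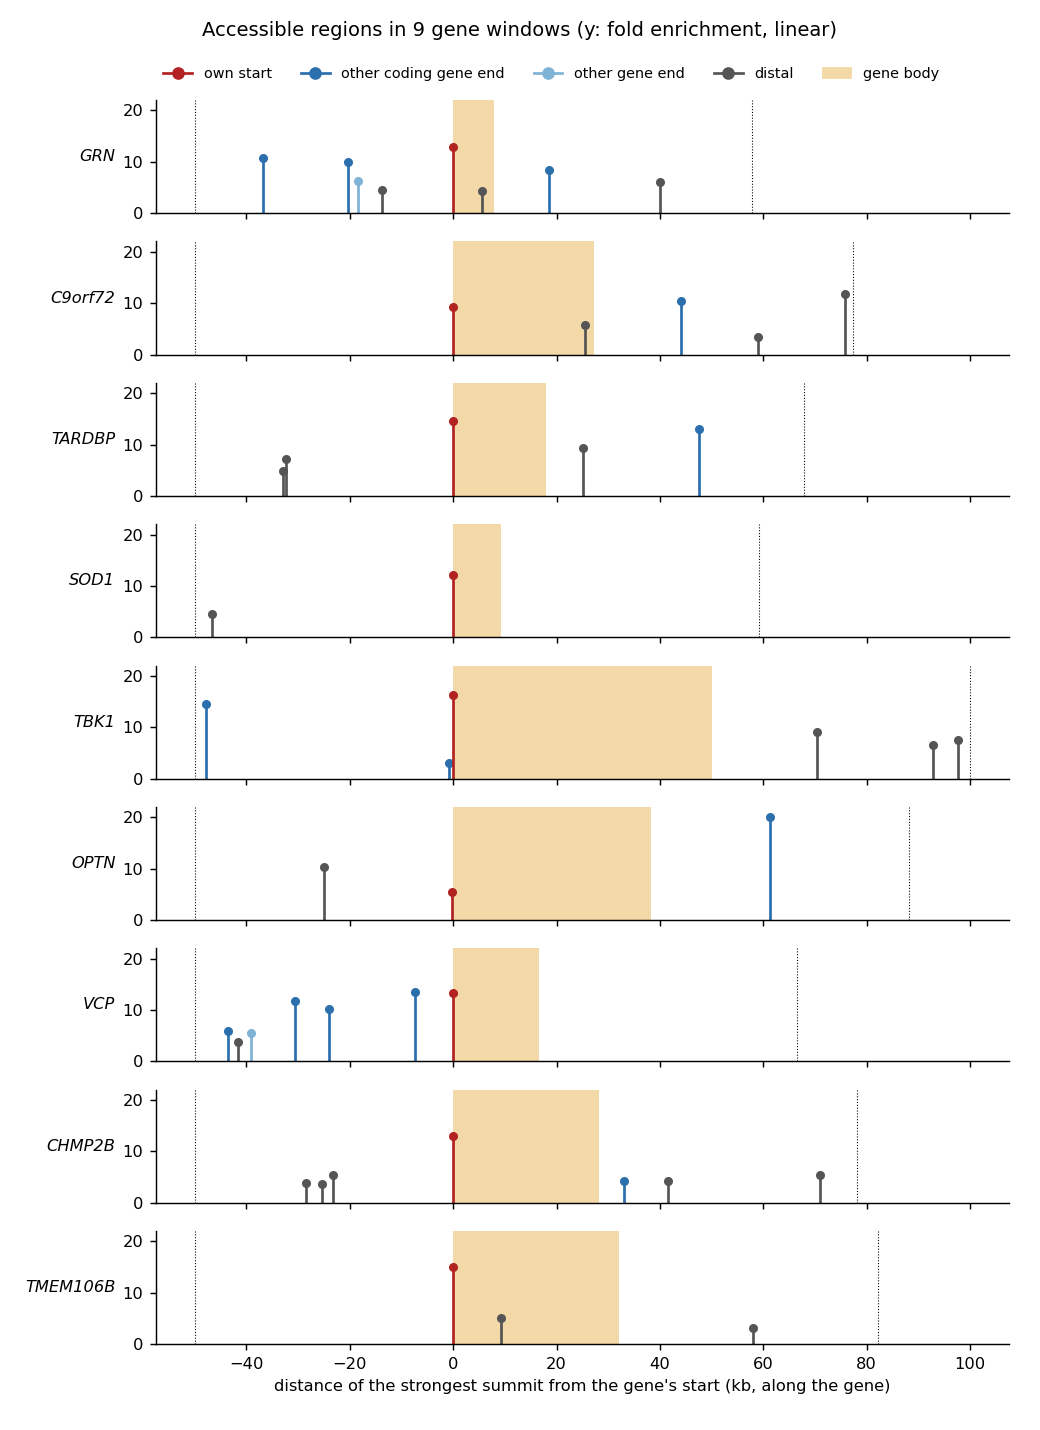
Fold enrichment (linear) of all 46 regions by distance of the strongest summit from each gene's start (kb, along the gene, for SOD1 from its lower-coordinate end). Sand marks the gene body, dotted lines the window, and colours the place of the region. Own starts, in red, are the highest point in 6 windows, and the highest point of all, at 20.1, is the MCM10 start in the OPTN window.

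Among the lysosomal genes, GRN had the fullest window on chromosome 17. Its start region spanned 44344803 to 44346041, with 1278 tags. A weaker region lay inside the gene, from 44350751 to 44351986, with its summit 5636 bp from the start. It held 283 tags (251 to 318), 4.27 times the background level. It had 3 summits and was the only region of the window inside GRN apart from part of the start region. Of the other 6 regions, 3 lay at ends of RUNDC3A (10.7), SLC25A39 (9.89) and FAM171A2 (8.36), and 1 at an end of a long non-coding RNA (6.26). Distal regions were found 13.8 kb upstream (44331191 to 44331626, fold enrichment 4.58, 239 tags) and 40.1 kb downstream inside ITGA2B (44384640 to 44386285, 6.08, 334 tags).

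TMEM106B, by contrast, was the only protein-coding gene in its window on chromosome 7, and the window held 3 regions. The start region, from 12210486 to 12211928, had 2058 tags, the second highest of the 9 genes. An intragenic region from 12220341 to 12220728, 9.27 kb from the start, had a fold enrichment of 5.13 and 154 tags (131 to 180). The last, from 12268813 to 12270938, lay 25.9 kb beyond the far end. It was 2126 bp wide with 6 summits, but its highest fold enrichment was 3.08 and its strongest summit held 92 tags (74.2 to 112.8). Its tag count was the lowest of the 46 regions and its deposited score, 564, was too.

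TARDBP on chromosome 1 had its start region from 11012134 to 11013385 and no other region with a summit inside the gene. A pair of neighbouring regions lay 33.0 and 32.3 kb upstream inside CIROZ, from 10979450 to 10979999 and from 10980049 to 10981251. Their fold enrichments were 4.94 and 7.20, with 488 and 711 tags. Downstream, a region inside MASP2 from 11037631 to 11038180 had a fold enrichment of 9.35 with 335 tags, which is percentile 91.4 of distal regions by ratio and 79.2 by tags. The start of SRM, the spermidine synthase gene, at 11059444 to 11060723, reached 13.0 with 1289 tags (1220 to 1361), more tags than the TARDBP start held at 1093 (1029 to 1160).

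C9orf72 had a further region within the gene, from 27548020 to 27548464, 1797 bp from its far end. It had a fold enrichment of 5.76 and 173 tags (148 to 201). No region of the list lay in the 50 kb upstream of the start region. The other 3 were beyond the far end, in or at MOB3B. The region at the MOB3B start, 27528089 to 27530249, had 7 summits, the most of any of the 46, and a fold enrichment of 10.4. Deeper in MOB3B, the region from 27497769 to 27498796 was distal to any end and reached 11.8 with 713 tags, percentile 97.7 of distal regions. It was more enriched than the C9orf72 start at 9.24, but it held about 0.492 times as many tags over a lower background. Another MOB3B region, 27514586 to 27514998, had 3.34 and 100 tags.

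Of the genes that act in autophagy, TBK1 on chromosome 12 had 2 regions at its start. The main one spanned 64451682 to 64452651 and, at 970 bp, was the narrowest of the 9. A second, from 64450930 to 64451473, lay 829 bp upstream and 166 bp past the end of XPOT, and held 338 tags at a fold enrichment of 2.98. The start of XPOT, the tRNA exportin gene, lay 47.8 kb upstream (14.5, 2699 tags) and had more tags than the TBK1 start. Beyond the far end, 3 distal regions lay inside RASSF3, at 64521840 to 64522981, 64544068 to 64545304 and 64549486 to 64549954. Their fold enrichments were 9.08, 6.46 and 7.48, and the TBK1 body itself held no summit of a distal region.

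OPTN had 1 distal region, from 13074501 to 13075358 inside CCDC3 and 25.1 kb upstream, with a fold enrichment of 10.3 and 310 tags (276 to 347). It was more enriched than the OPTN start at 5.47, but held fewer tags than the 431 there. Its background was at the floor of 29.2 tags, against 77.9 at the start. The start of MCM10, a DNA replication factor, had the highest fold enrichment of all 46 regions, at 20.1 with 1844 tags (13161052 to 13162135). OPTN was therefore the only one of the 9 genes whose start was the least enriched region of its window.

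VCP on chromosome 9 had its start region from 35071729 to 35073203, and all 7 regions of its window lay upstream of the start or at it. None of the 7 strongest summits was inside the gene or in the 50 kb past its far end. Those at FANCG (13.4), PIGO (10.3) and STOML2 (11.8) were starts of close neighbours, and the FANCG and VCP values overlapped within counting error. The last 3, at 35111270 to 35111914, 35114065 to 35114678 and 35115787 to 35117136, lay in ATOSB, which has an annotated start in the outer pair. They had many tags (1724, 1284 and 1911) but fold enrichments of 5.60, 3.84 and 5.98, over backgrounds of 306.8, 333.9 and 318.9 tags. The middle one was at percentile 99.4 of distal regions by tags but at 22.5 by fold enrichment.

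CHMP2B on chromosome 3 had its start region from 87226569 to 87228054 and 6 further regions, none above a fold enrichment of 5.51. A group of 3 lay 23.3 to 28.4 kb upstream, with CHMP2B itself as the nearest coding gene (87198773 to 87199331, 87201602 to 87202140 and 87203748 to 87204291). Their fold enrichments were 3.92, 3.67 and 5.51, with 163, 165 and 225 tags. Another 2 were in POU1F1, a pituitary transcription factor gene, each at 4.24 with 127 tags, and the last, 87298058 to 87298608, had 5.36 and 161 tags. The start of CHMP2B, with 1272 tags, held 5.65 times as many as the next region of its window.

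SOD1 on chromosome 21 had the emptiest window. Besides the region at its end (31659219 to 31660572, 5 summits), only 1 other was listed, 46.6 kb beyond the lower-coordinate end, from 31612613 to 31613658, with a fold enrichment of 4.53 and 178 tags (153 to 206). At most 2 regions were found for 21.0% of protein-coding genes.

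The 22 distal regions around the 9 genes had fold enrichments of 3.08 to 11.8, with a median of 5.24. That is close to the median of 5.07 over all 46649 distal regions of the list, and 12 of the 22 were above it. In tags their median was 251, against 197. By the definition of distal, none has an annotated start of any gene within 1 kb in the promoter table. Of the 22, 3 were inside GRN, C9orf72 or TMEM106B and the others outside the 9 genes. The list does not tie a distal region to a target gene.

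The promoter table matched 8 of the 9 genes, with 10 windows, since C9orf72 and OPTN have 2 starts each, and every base of these windows was inside an accessible region. They were searched on either strand for 16 words and compared with 22199 windows of protein-coding genes. The words were CACGTGAC and the longer CLEAR palindrome that holds it (bound by TFEB, a regulator of lysosomal genes), CAGATG and CAGCTG (E-boxes of the NGN2 type), AAGATGGC and a longer YY1 word, TGACGTCA (CREB), CCGGAAGT (ETS factors), CCAAT (NFY), GGGGCGGGG and GGGCGG (SP and KLF factors), TGACNNNGC (NFE2L2 type), a pair of NRF1 words, an RFX word and a ZBTB33 word. The shorter word of a pair lies within or overlaps the longer, so their matches are not independent. A match describes these letters only.

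Beside each word stand its share of the coding promoter windows and, since these genes all have an accessible start and some have 2 windows, the share of the 11284 genes with an accessible start that hold it in any window. TBK1 alone held CACGTGAC (3.08% of windows, 5.23% of such genes). The word begins 33 bases before the start, and the strongest summit falls inside it. CCGGAAGT was also found in TBK1 alone, 2 bases before the start (5.34% and 9.50%). CCAAT was found in GRN, VCP, TBK1 and C9orf72, that is in 4 of 8 genes (34.7% and 43.7%). GRN held 3 copies, and the strongest summit lay 5 bp from the one that begins 93 bases before the start. VCP held 5 copies, the most of the 8 genes, and the nearest began 124 bases before the start and 14 bp from the summit. GGGCGG was found in OPTN, C9orf72 and TARDBP, 3 of 8 genes (56.3% and 77.8%), and in TARDBP the strongest summit fell inside it. The longer GGGGCGGGG was found in OPTN and C9orf72 (20.6% and 32.8%). OPTN also held CAGCTG (18.0% and 22.7%) and TARDBP held CAGATG (12.2% and 13.4%), while TGACNNNGC was found in CHMP2B and VCP (13.8% and 19.2%). None of the 16 words was found in TMEM106B, and 8 of the 16 were found in none of the 8 genes.

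The windows differed in base composition. VCP had the highest ratio of observed to expected CpG, 1.13, at percentile 97.9 of coding promoters. The outer C9orf72 window had a CpG ratio of 1.06 (percentile 94.4) although its GC content was only 49.0% (percentile 18.3), and the inner one, with the repeat, had 64.7% GC. GRN had the lowest CpG ratio, 0.636 (percentile 40.4), followed by TARDBP at 0.643 (percentile 40.9). TBK1 and TMEM106B, the most enriched starts, had ratios of 1.00 and 0.98. The medians over coding promoters were 62.3% GC and a ratio of 0.737. Over genes with an accessible start, as all of these have, they were 64.7% and 0.810. The percentiles above are against all coding promoters.

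Other genes of the same processes were read from lists of 68 genes in all, SQSTM1 being in 2 of them. An accessible start was found for 60 of them (88.2%, against the 68.4% of all protein-coding genes), with a median fold enrichment of 11.7 against 10.6. Of 30 other ALS and frontotemporal dementia genes 28 had one. The highest were CYLD, a deubiquitinase (17.1), SPG11 (16.5) and TIA1, a stress granule protein (16.5). The lowest were ERBB4, a neuregulin receptor (2.75), KIF5A, a kinesin motor (4.32) and TUBA4A, a tubulin (5.21). ANG, a secreted ribonuclease gene, had none within 1 kb, although 1 region lay inside it.

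Lists of partners of individual genes hold 2 to 12 genes each, and their counts are to be read against the 68.4% of all protein-coding genes. The C9orf72 partners SMCR8 and WDR41 had fold enrichments of 12.9 and 12.02, above the 9.24 of C9orf72 itself. For progranulin handling, the sorting receptor gene SORT1 had 13.6, PSAP 14.2, and the protease genes CTSD and CTSL 8.73 and 9.13. Of 12 genes of ESCRT-III and VPS4, 11 were open, from CHMP2A, the paralogue of CHMP2B, at 3.86 to CHMP4B at 17.2. CHMP7 was not by the 1 kb rule, but only its outer ends were searched, and 1 region lay inside it. VCP cofactors were open in 6 of 8 genes (75%, near the share of all protein-coding genes), with NPLOC4 and UBXN6 the exceptions. Each of these exceptions held 1 region inside the gene, farther than 1 kb from its annotated start. AZI2 (14.1), TANK (11.4) and TBKBP1 (6.74), adaptors of TBK1, were open. The related kinase gene IKBKE was not, although 2 regions lay inside it. All 4 other autophagy receptor genes were open, and each was above the 5.47 of OPTN, from SQSTM1 at 6.36 to TAX1BP1 at 16.4. SOD2 (14.3) and CCS, the copper chaperone of SOD1 (12.8), were open and SOD3 was not, and of the TMEM106B relatives TMEM106C (13.6) was open and TMEM106A was not.

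**Figure D4:**
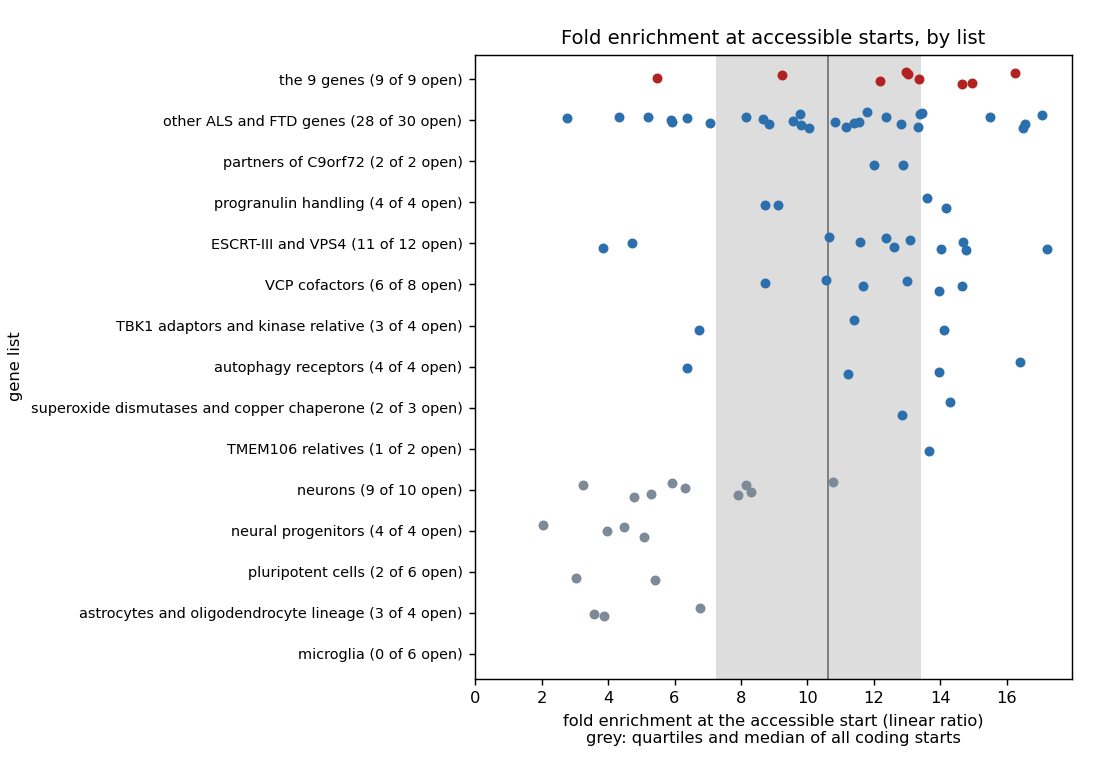
Fold enrichment (linear) at accessible starts of the 9 genes (red), of genes of the same processes (blue) and of cell type markers (grey points), each point 1 gene, with small vertical offsets that only separate points. The grey band and line are the quartiles and the median of accessible coding starts, and the labels count open genes. Marker genes of neurons lie between 3.24 and 10.8, and 7 of the 9 disease genes lie above the median line.

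Marker genes were read by the same measure, to set them beside the labelled cell type. Of 10 neuronal genes 9 had an accessible start, against 68.4% of all protein-coding genes. ELAVL4, the exception, held 2 regions inside the gene. The numbers were 4 of 4 for neural progenitors, 3 of 4 for astrocytes and oligodendrocytes (without GFAP) and 2 of 6 for pluripotent cells (POU5F1, NANOG, TDGF1 and ZFP42 without one). Median fold enrichment at the open ones was 6.33 for neurons, 4.23 for progenitors, 4.23 for pluripotent cells and 3.87 for astrocytes and oligodendrocytes, each below the 10.6 of all accessible coding starts. These counts do not separate neurons from progenitors or from astrocytes and oligodendrocytes. For microglia, a cell type in which GRN is known to be active, the number was 0 of 6. So few chosen genes set no firm limit on the share of open starts. Regions lay inside CX3CR1 (2), P2RY12 (1) and SPI1 (1), though not within 1 kb of a start. Accessibility is not expression, and no RNA was analysed here.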

How the data were processed

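ATAC-seq of 3 replicates was deposited by the authors as 1 combined peak list, an optimal set by irreproducible discovery rate per the labels. The build is hg38, per the submitters' processing notes. The aligner, peak caller and filters are not given in the sources used here. The deposited values are a linear fold enrichment (a ratio), a −log10 p per summit, and a score from 540 to 1000 whose scaling is not stated.

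Entries with the same bounds were merged, and the entry with the highest −log10 p gave a region its values. Whole tag counts were recovered from the ratio, taken as (tags + 1) / (background + 1), and the Poisson p. They matched the deposited −log10 p of all entries to within 0.00079, against a median miss of 0.266 for the next whole number, and the median was 189 tags (lowest 58, highest 3783). They are depths of the pooled data, and the depth of each replicate is unknown. PCR tags are not independent molecules.

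Gene ends came from RefSeq GRCh38.p14, and starts from the RefSeq promoter table, which held 15843 of 20037 protein-coding genes. For the others, SOD1 included, either outer end was used. TDGF1 was matched by its current symbol. A percentile is the share of accessible coding starts, distal regions or promoters with a lower value, ties shared evenly. Sequence composition, summit ratios, background levels, shares of genes holding a word and the annotated starts near each region were chosen after seeing the data.

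No test was run, since there is 1 group and 1 list. The genes and lists were chosen with earlier results of these data known. Genes named are the 9, the coding gene nearest to a region, and in each list those without an accessible start and the 3 highest and 3 lowest. Further genes of the short lists are named for completeness, and 1 gene that the rule selects is not reported here. Alternatives were other windows, overlaps, scores, starts and entries. Python 3.11.15, numpy 2.4.6, scipy 1.17.1, pandas 2.3.3 and matplotlib 3.10.9 were used, and the code was tested on simulated data.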

Additional observations from a re-analysis of the deposited data

How the results depend on the processing

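All 9 genes had an accessible start in each of the 5 alternatives run, while the share of all protein-coding genes moved between 63.8% (500 bp window) and 71.7% (2 kb window). For the other ALS and frontotemporal dementia genes, only the 500 bp window, the 2 kb window and a score of at least 830 were run. The number with an accessible start was 28 of 30, except with the 2 kb window, where it was 30. Taking the entry with the highest fold enrichment gave the same value at each of the 9 starts, so the median stayed at 13.0. Background differs little within a start region, so that choice of entry could hardly change a value. The median percentile was 71.4 by fold enrichment and 69.5 by tags. All 15 pairs of gene and word stayed when only matches inside an accessible interval were counted. This alternative could not remove a match, because every base of the windows was inside an accessible region.

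The 46 regions became 30 above the median fold enrichment of all regions, 22 within 20 kb, 72 within 100 kb, 10 with a summit in the gene body only and 121 as summits. A wider or narrower window admits more or fewer regions by construction. It was 46 with any overlap of 1 bp, 42 with a score of at least 830 and 31 without any region within 1 kb of an end of another coding gene, which takes away the 13 such regions and also the own starts of TBK1 and OPTN, close to XPOT and CCDC3. No paired analysis was possible because there is a single group whose replicates were pooled, which also means that leaving out a replicate could not be tried. Differences smaller than the counting intervals cannot be read at this depth.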
